A study of Mus musculus with 36 samples.

Results

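NRF2, the transcription factor encoded by Nfe2l2, and a set of 8 genes tied to it were followed across all 36 RNA-seq libraries of sorted mouse lung cells. The members were chosen by name from the deposited table: Nfe2l2 itself, its repressor Keap1, and the target genes Nqo1, Gclm, Gclc, Slc7a11, Gsr, Txnrd1 and Srxn1. All 9 were found, each on a single row, among 27562 rows. The libraries came from male C57BL/6J (CD45.2) mice that were irradiated with the chest shielded, given busulfan and then transplanted with CD45.1 bone marrow. By the study's methods the marrow donors were B6.SJL-Ptprca Pepcb/BoyJ mice. FA and PM2.5 mice therefore shared the irradiation, the busulfan and the transplant. The mice breathed filtered air (FA) or concentrated fine particles (PM2.5) for 4-weeks or 32-weeks, after which alveolar macrophages (AΦ) and monocytes were sorted from the lung. Each of the 12 groups held 3 libraries.

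At 32-weeks AΦ were sequenced by origin, as tissue-resident TR-AΦ (CD45.2, labelled MF2) and bone marrow-derived BM-AΦ (CD45.1, labelled MF1). The monocytes labelled Mono1 and Mono2 were read by the same key as CD45.1 and CD45.2 cells, which the sample labels do not state themselves. At 4-weeks CD45.2 cells alone were sequenced, and BM-AΦ or CD45.1 monocytes of that time were not analysed here. Mice at 32-weeks were also older than mice at 4-weeks, and age and length of exposure cannot be told apart. By the study's methods 3 mice were selected for each exposure and time, so libraries of different cell types or origins at the same exposure and time would share mice. The labels do not say which libraries do. The p-values measure only the spread between libraries, and those of the cell type and origin comparisons treat the libraries as independent.

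NRF2 is held at a low level in unstressed cells by KEAP1, an adaptor that hands it to a ubiquitin ligase. Electrophiles and oxidants modify KEAP1, and NRF2 then builds up, pairs with small MAF proteins and binds antioxidant response elements. Its targets make and recycle glutathione, reduce thioredoxin and supply NADPH. In the lung, AΦ meet inhaled particles first, and the NRF2 targets are widely read as a sign of oxidant load. NRF2 is controlled mainly at the level of the protein, so the mRNA of Nfe2l2 does not report its activity.

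The members lie on 5 chromosomes in the mm10 coordinates of the deposited table, written here from the first base. Nfe2l2 (ENSMUSG00000015839.6) spans chr2:75675513-75704641 on the minus strand, and Srxn1 (ENSMUSG00000032802.8) spans chr2:152105524-152111376 on the plus strand. Keap1 (ENSMUSG00000003308.14) is at chr9:21225371-21239332, minus, and Gclc (ENSMUSG00000032350.8) is at chr9:77754535-77794485, plus. Gclm (ENSMUSG00000028124.15) is at chr3:122245557-122303613, plus, and Slc7a11 (ENSMUSG00000027737.10) is at chr3:49892526-50443614, minus. Nqo1 (ENSMUSG00000003849.8) is at chr8:107388225-107403206, minus, and Gsr (ENSMUSG00000031584.16) is at chr8:33653238-33698163, plus. Txnrd1 (ENSMUSG00000020250.9) is at chr10:82859206-82897724, plus. All 9 are protein-coding genes. The table's spans of Keap1 and Gclm run past an end of the gene in GENCODE vM21, by 32881 bases for Gclm, and its Txnrd1 begins 25255 bases inside the annotated gene.

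The antioxidant response element is written TGACNNNGC, where N is any base. These letters were searched on both strands of the promoter windows of RefSeq (GRCm38.p6), each from 250 bases before to 50 bases after a gene's start. Windows were given for 7 of the 9 members, all but Gclc and Gsr. The windows of 4 members held a match, which is 57.1% of 7 counted by gene, beside 14.0% of 27025 gene symbols with a window. Counted by window, which is not the members' measure, 12.4% of all 32851 windows held one. The matches are printed because they differ in sequence and in place, with the 9 matching letters in capitals and 10 bases on either side, 5′ to 3′ along the strand of the gene.
Nfe2l2, chr2:75704885-75704913: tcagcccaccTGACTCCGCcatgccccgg
Gclm, chr3:122245413-122245441: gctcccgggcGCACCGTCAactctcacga
Txnrd1, chr10:82859104-82859132: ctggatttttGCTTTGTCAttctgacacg
Srxn1, chr2:152105542-152105570: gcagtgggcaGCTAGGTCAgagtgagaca
The Nfe2l2 match begins 240 bases before the start and reads along the gene. The other three read on the opposite strand, beginning 134 bases before the start in Gclm, 92 bases before it in Txnrd1 and 28 bases after it in Srxn1. Txnrd1 has 3 listed starts, and the match sits at the start where the table's gene begins. The windows of Keap1, Nqo1 and Slc7a11 did not hold these letters. A match describes the letters alone and is no evidence that NRF2 binds there.

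Expression is given as FPKM, a fragment count that the authors scaled by transcript length and by library size. Because of the scaling by length, levels of different genes can be set side by side. The libraries' FPKM values summed to between 1839577 and 3339020, and 15171 to 18244 genes were above 0. The sums ran from 1839577 to 2580780 in AΦ and from 2320650 to 3339020 in monocytes. Levels compared between the cell types were not adjusted for this. The read depth behind a value is unknown. The summed level of 12 AΦ marker genes was 6849 to 14273 FPKM in the 18 AΦ libraries and 265 to 1643 FPKM in the 18 monocyte libraries. Of the defining AΦ genes, Siglecf ran from 69.6 to 157 FPKM in AΦ and from 0.18 to 8.99 FPKM in monocytes. The summed level of 10 monocyte markers was 106 to 612 FPKM in AΦ and 1996 to 6025 FPKM in monocytes. In 2 of the 6 libraries of CD45.2 monocytes at 32-weeks the summed level of 7 interstitial macrophage markers was above that of the monocyte markers. It was 3827 FPKM against 1996 in the FA library numbered 0, and 3157 against 2281 in the PM2.5 library numbered 1, which also held the most AΦ marker RNA of the monocytes. Several counts of calls that rest on these 2 libraries are given with and without them, an alternative chosen after seeing the data. Other counts, among them those of groups that did not overlap, are given with them only. In bulk libraries fewer cells of a type and less RNA per cell cannot be told apart.

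The members spanned a wide range of levels. Nfe2l2 was abundant, at a median of 169 FPKM over the 36 libraries with a range of 77.5 to 616. Gsr, the reductase that regenerates glutathione, had a median of 118 FPKM, and Txnrd1, the cytosolic thioredoxin reductase, had one of 46.4. Srxn1, the sulfiredoxin that repairs over-oxidised peroxiredoxins, stood at 22.0 FPKM and Slc7a11, the cystine importer, at 14.1. The middle of the range thus held the thioredoxin arm and the cystine importer. Keap1 had a median of 8.67 FPKM, Gclc, the catalytic subunit of glutamate-cysteine ligase, had 6.25, and Gclm, its modifier subunit, had 5.31.

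Nqo1, a quinone reductase often used as a reporter of NRF2, was at the bottom of the table. It ran from 0 to 1.91 FPKM, with a median of 0.35, and was listed at 0 in 8 of 36 libraries. In TR-AΦ at 32-weeks the FA libraries read 0.31, 0.42 and 0.39 FPKM and the PM2.5 libraries 1.91, 0.68 and 0.17. In CD45.2 monocytes at 32-weeks the FA libraries read 0, 0.20 and 0 FPKM and the PM2.5 libraries 0.41, 0.50 and 0.57, while the 3 FA libraries of CD45.1 monocytes were all listed at 0. Nqo1 had a mean under 1 FPKM over the AΦ, over the monocytes and over both, so it entered no test. The other 8 members were tested in every comparison.

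**Figure D1:**
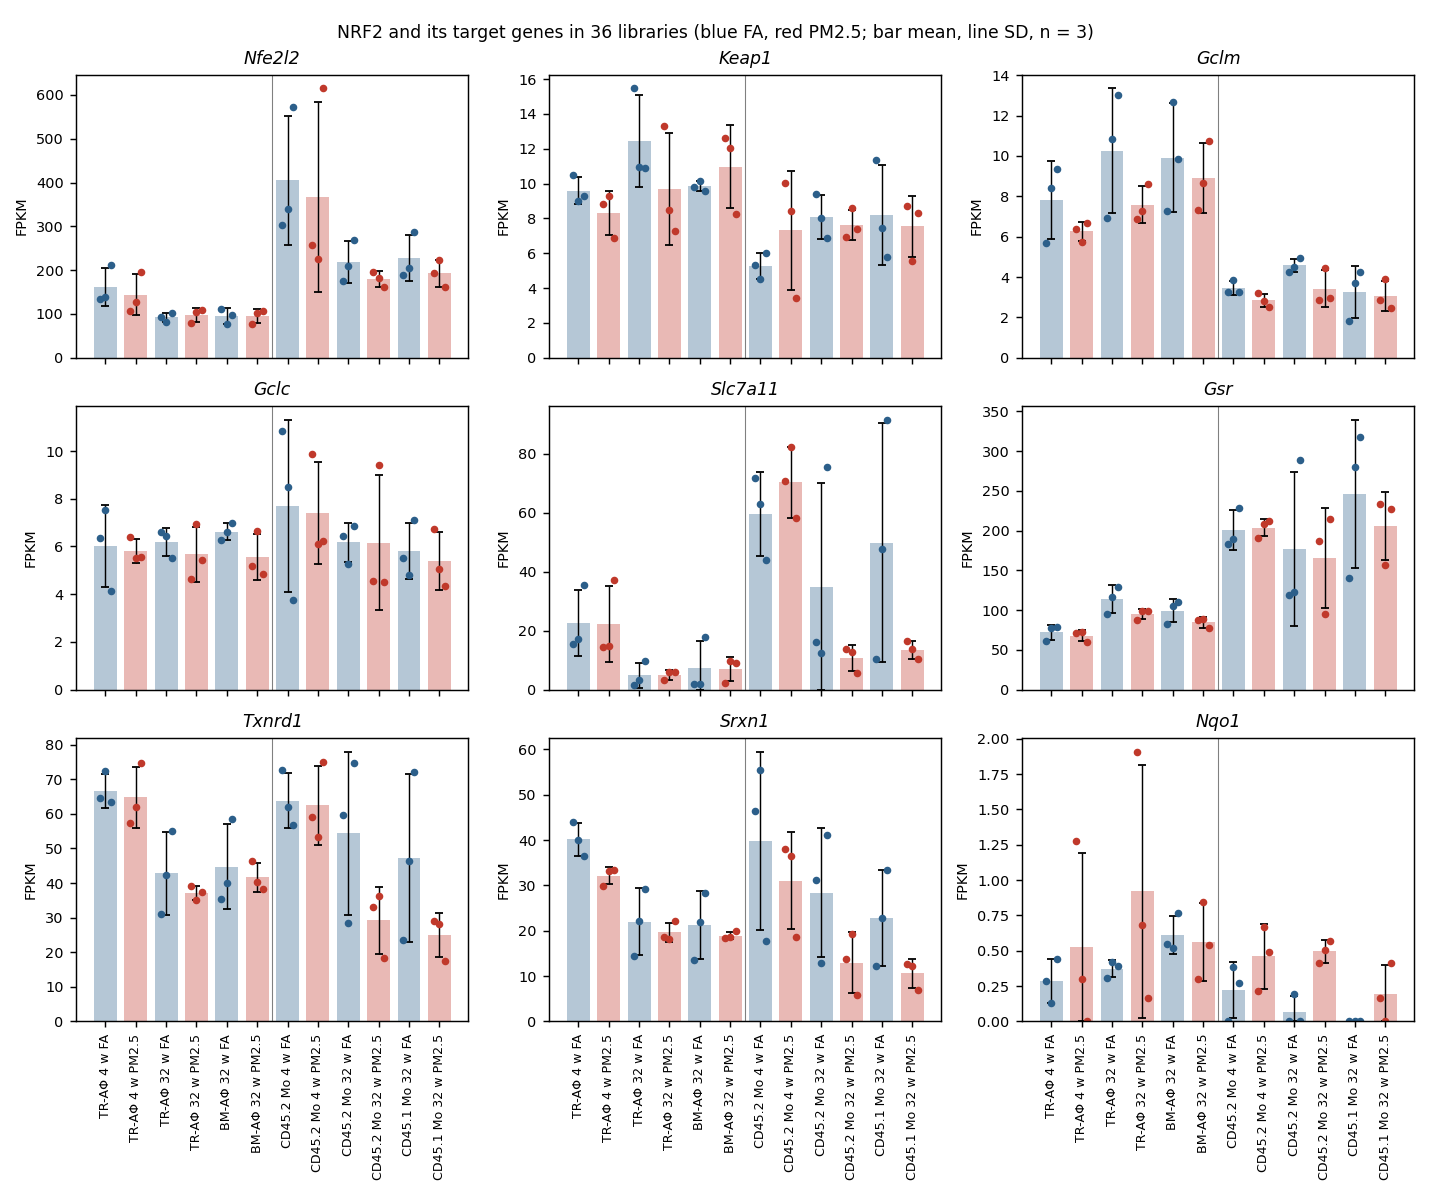
FPKM of the 9 genes in the 12 groups, with 1 point for each library, a bar for the mean and a line for the SD, which stops at 0 (n = 3 per group, blue FA, red PM2.5, AΦ left and monocytes right of the grey line). By group means at the same time, origin and exposure, Nfe2l2, Gsr and Slc7a11 were higher in monocytes and Gclm was higher in AΦ. Nqo1 did not exceed 1.91 FPKM.

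Across the 12 groups the spread between libraries covered most neighbouring steps. Each gene's groups were put in order of their mean, and the ranges of neighbours were compared over 11 steps. Only the members were ordered in this way, so these counts have no share over all genes beside them. For Nfe2l2, Keap1, Nqo1, Gclc, Txnrd1, Srxn1, Slc7a11 and Gsr, 0 of 11 neighbouring pairs were apart. For Gclm 3 of 11 were apart, and the only step between AΦ and monocytes was among them: PM2.5 TR-AΦ at 4-weeks read 5.75 to 6.67 FPKM and FA CD45.2 monocytes at 32-weeks read 4.27 to 4.94. From its highest to its lowest group mean Slc7a11 differed 14.4-fold, from 70.4 ± 12.1 FPKM (SD, n = 3) in PM2.5 monocytes at 4-weeks to 4.88 ± 4.29 in FA TR-AΦ at 32-weeks. Gclc differed least, 1.43-fold, from 7.70 ± 3.61 FPKM in FA monocytes at 4-weeks to 5.38 ± 1.23 in PM2.5 CD45.1 monocytes at 32-weeks. Nfe2l2 differed 4.39-fold, Srxn1 3.78-fold, Gsr 3.63-fold, Gclm 3.61-fold, Txnrd1 2.68-fold and Keap1 2.36-fold.

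The first comparison asked how PM2.5 moved these genes in each population. None of the 8 tested members passed in any population (limma on log2(FPKM + 1), adjusted p under 0.05 over all genes tested). In TR-AΦ at 4-weeks the members' log2 fold changes, PM2.5 against FA, ran from -0.31 to -0.01, and the lowest adjusted p was 1. In TR-AΦ at 32-weeks they ran from -0.36 to 0.24, and in BM-AΦ at 32-weeks from -0.23 to 0.39. Averaged over both times in TR-AΦ, they ran from -0.31 to 0.09. Slc7a11 had the widest interval of the members in each of these. In CD45.2 monocytes at 4-weeks they ran from -0.27 to 0.31. The number with an unadjusted p under 0.05 was 0 of 8 in each of these comparisons and in 32-week monocytes.

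Few genes passed in the whole table either, in this test on FPKM. The study's own pairwise test, cuffdiff on aligned reads, reported more genes with PM2.5 in TR-AΦ at both times and in BM-AΦ. In TR-AΦ 1 of 12665 genes passed at 4-weeks (0.0079%), 0 passed at 32-weeks (0%) and 1 passed in the mean of both times (0.0079%), with 372, 396 and 385 genes at an unadjusted p under 0.05. In BM-AΦ 2 genes passed (0.0158%), with 259 at an unadjusted p under 0.05. In monocytes 1 of 12856 genes passed at 4-weeks (0.00778%), and 0 passed at 32-weeks in CD45.2 cells (0%) and in CD45.1 cells (0%), with 272, 547 and 609 at an unadjusted p under 0.05. The intervals bound what the members' counts of 0 can say. In TR-AΦ the 95% intervals of the 8 members reached from -1.63 to 1.51 on the log2 scale at 4-weeks and from -1.33 to 1.81 at 32-weeks.

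**Figure D2:**
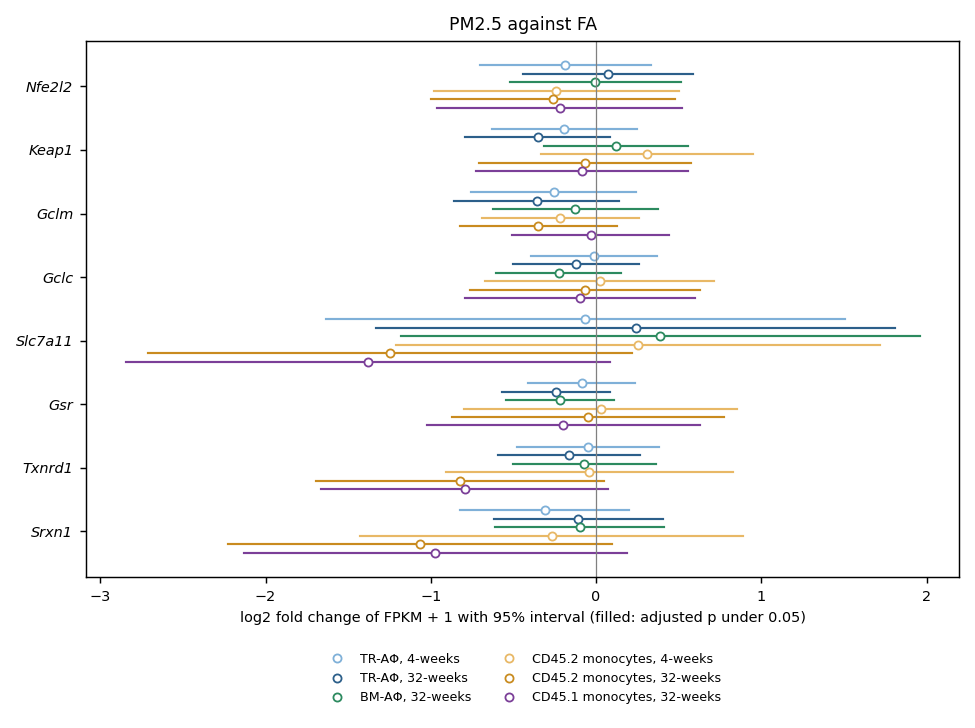
Log2 fold change of FPKM + 1, PM2.5 against FA, with 95% interval for the 8 tested genes in 6 populations, where a filled point would mark an adjusted p under 0.05. No point is filled; the values farthest from 0 are those of Slc7a11, Srxn1 and Txnrd1 in 32-week monocytes, from -1.38 to -0.80.

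The largest differences with PM2.5 were in 32-week monocytes, in Txnrd1, Srxn1 and Slc7a11. For Slc7a11 in CD45.1 monocytes the FA libraries read 10.4, 47.7 and 91.5 FPKM and the PM2.5 libraries 16.4, 13.7 and 10.3, a log2 difference of -1.38 (95% interval -2.85 to 0.08, adjusted p = 0.95). In CD45.2 monocytes the FA libraries read 16.1, 12.6 and 75.6 FPKM and the PM2.5 libraries 13.6, 12.6 and 5.68, a log2 difference of -1.25 (-2.71 to 0.22, adjusted p = 1). The PM2.5 libraries were alike and low, the FA libraries were scattered over several fold, and the groups overlapped. Without the highest FA library the difference in CD45.2 cells was -0.47, and in CD45.1 cells it was -0.72. Without the lowest FA library it was -2.23 in CD45.1 cells (adjusted p = 0.242).

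Txnrd1 and Srxn1 also had lower means with PM2.5 and groups that overlapped. Txnrd1 in CD45.1 monocytes read 23.5, 46.3 and 72.1 FPKM with FA and 29.0, 28.0 and 17.6 with PM2.5, a log2 difference of -0.80. In CD45.2 monocytes it read 59.8, 28.4 and 74.8 FPKM with FA and 33.1, 36.3 and 18.2 with PM2.5, a difference of -0.82. Srxn1 differed by -0.97 in CD45.1 and by -1.07 in CD45.2 monocytes. With PM2.5 it read 12.8, 12.2 and 6.94 FPKM in CD45.1 cells and 13.7, 19.3 and 5.91 in CD45.2 cells. The PM2.5 libraries of CD45.2 cells were thus scattered too. A single FA library in each origin lay inside the PM2.5 range for both Txnrd1 and Srxn1. In CD45.1 cells this was replicate 0, at 12.2 FPKM of Srxn1 against 22.9 and 33.4 in the others, and in CD45.2 cells it was replicate 1, at 12.9 against 31.3 and 41.0. These 2 libraries had the highest summed level of 8 immediate-early and heat shock genes among the FA libraries of their origin. This sum, read here as a sign of handling, was 4817 FPKM against 1889 and 2373 in CD45.1 cells. In CD45.2 cells it was 4920 FPKM against 4134 and 2861. The PM2.5 libraries read 2773, 2794 and 2475 FPKM in CD45.1 cells and 3251, 3905 and 2721 in CD45.2 cells. The part of handling in the spread was not tested.

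**Figure D3:**
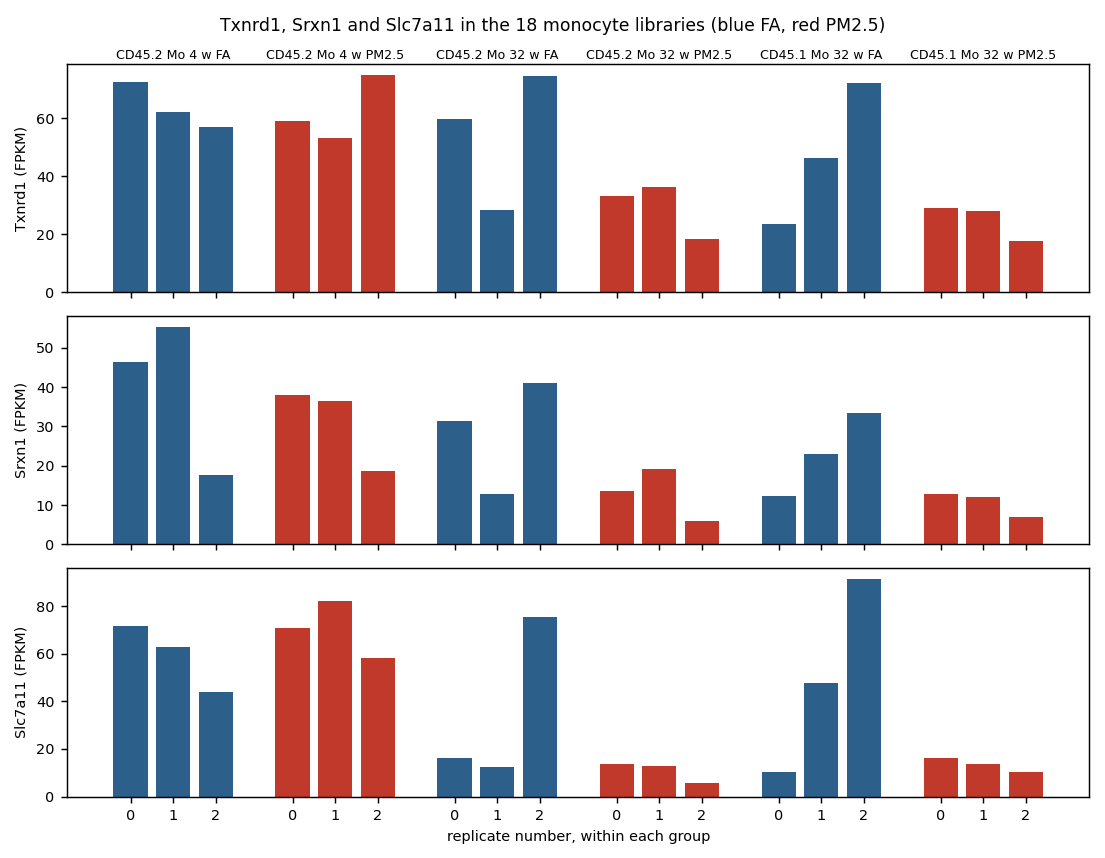
FPKM of Txnrd1, Srxn1 and Slc7a11 in each of the 18 monocyte libraries, grouped by origin, time and exposure (blue FA, red PM2.5). At 32-weeks the PM2.5 groups had the lower means in all 3 genes, while the FA libraries ran from 10.4 to 91.5 FPKM in Slc7a11.

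At 4-weeks the exposure differences were small but the groups were apart in a single gene of each population. In TR-AΦ Srxn1 read 43.9, 40.1 and 36.5 FPKM with FA and 29.9, 33.2 and 33.3 with PM2.5, a log2 difference of -0.31 (adjusted p = 1). In CD45.2 monocytes Gclm read 3.24, 3.87 and 3.28 FPKM with FA and 3.19, 2.82 and 2.53 with PM2.5, a difference of -0.22 (adjusted p = 1). These were 1 of 8 members in each comparison, beside 5.82% of all genes in TR-AΦ and 6.57% in monocytes whose groups did not overlap.

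The effect of PM2.5 was also compared between times and between origins. The interaction of exposure and time in TR-AΦ passed for 0 of 8 members and for 1 of 12665 genes (0.0079%, with 380 at an unadjusted p under 0.05). The interaction of exposure and origin in AΦ at 32-weeks passed for 0 of 8 members and for 2 genes (0.0158%, with 240 at an unadjusted p under 0.05). The members' interaction values ran from -0.16 to 0.30 for time and from -0.10 to 0.47 for origin. These comparisons share libraries with those above.

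Within AΦ, members passed between the times and in no comparison of exposure or origin. In TR-AΦ, Txnrd1, Srxn1, Slc7a11 and Nfe2l2 were lower and Gsr was higher at 32-weeks than at 4-weeks. With FA and PM2.5 averaged, 6 libraries against 6, all 5 of these passed, of 8 members tested, beside 748 of 12665 genes (5.91%). This averaged comparison was added after the values were seen, in the form already set for monocytes. Within FA alone and within PM2.5 alone, 3 libraries against 3, 0 of 8 members passed, beside 99 genes (0.782%) and 133 genes (1.05%), while 5 of 8 had an unadjusted p under 0.05 in each.

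Txnrd1 in TR-AΦ at 4-weeks read 64.5, 72.3 and 63.3 FPKM with FA and 57.5, 62.1 and 74.6 with PM2.5. At 32-weeks it read 31.0, 42.3 and 55.1 with FA and 39.1, 35.1 and 37.3 with PM2.5. All 6 libraries of 32-weeks were below all 6 of 4-weeks. The log2 fold change was -0.72 (SE 0.14, adjusted p = 0.0104), with -0.66 within FA (adjusted p = 0.175) and -0.78 within PM2.5 (adjusted p = 0.0838).

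Srxn1 fell in parallel. At 32-weeks it read 14.5, 22.2 and 29.2 FPKM with FA and 18.5, 18.3 and 22.1 with PM2.5, all below the lowest library of 4-weeks at 29.9. The log2 fold change was -0.79 (SE 0.17, adjusted p = 0.0157), with -0.89 within FA and -0.69 within PM2.5. Txnrd1 and Srxn1 act in the same chain, since sulfiredoxin restores the peroxiredoxins that thioredoxin keeps reduced.

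Slc7a11, which brings in cystine for glutathione synthesis, had the largest change. At 4-weeks it read 15.3, 17.1 and 35.5 FPKM with FA and 14.6, 14.9 and 37.0 with PM2.5, and at 32-weeks 1.52, 3.40 and 9.71 with FA and 3.17, 5.86 and 5.86 with PM2.5. Again every library of 32-weeks was below every library of 4-weeks. The log2 fold change was -2.01 (SE 0.52, adjusted p = 0.0371), with -2.17 within FA (adjusted p = 0.229) and -1.86 within PM2.5 (adjusted p = 0.238).

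Nfe2l2 was lower at 32-weeks, at 79.0 to 109 FPKM with a median of 97.2, than at 4-weeks, at 107 to 212 with a median of 137. The ranges met, with the highest 32-week library just above the lowest 4-week library. The log2 fold change was -0.65 (SE 0.17, adjusted p = 0.0396), with -0.78 within FA and -0.52 within PM2.5. In both 4-week groups the library numbered 2 was the highest, at 212 and 196 FPKM. The same libraries were the highest in Slc7a11 and held the most neutrophil, interstitial macrophage and monocyte marker RNA of the 4-week AΦ. Their monocyte marker sums were 580 FPKM with FA and 612 with PM2.5, against 206 to 335 in the other 4-week AΦ, and Nfe2l2 and Slc7a11 are both higher in monocytes than in AΦ. The part of this RNA was not tested.

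Gsr went the other way. It read 61.2, 77.2 and 78.2 FPKM with FA and 71.7, 72.1 and 59.4 with PM2.5 at 4-weeks, and 94.7, 117 and 129 with FA and 88.0, 98.6 and 99.4 with PM2.5 at 32-weeks. All 6 libraries of 32-weeks were above all 6 of 4-weeks. The log2 fold change was 0.57 (SE 0.11, adjusted p = 0.00795), with 0.64 within FA (adjusted p = 0.0758) and 0.49 within PM2.5 (adjusted p = 0.143).

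Keap1, Gclm and Gclc did not pass. Their log2 differences were 0.25 (95% interval -0.06 to 0.56), 0.29 (-0.07 to 0.64) and 0.01 (-0.26 to 0.28). The members therefore did not move as a block. Groups of 32- and 4-weeks were apart for 4 of 8 members with the exposures pooled (3.86% of all genes), for 6 of 8 within FA (15.6%) and for 5 of 8 within PM2.5 (18.3%).

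Txnrd1, Srxn1 and Gsr kept their call when any single library was left out. Nfe2l2 and Slc7a11 lost theirs without 11 and 10 of the 12 single libraries, respectively. The adjusted p of Nfe2l2 ran from 0.0123 to 0.0984 and that of Slc7a11 from 0.00245 to 0.112 over all the alternatives. Without both 4-week libraries numbered 2, an alternative chosen after seeing the data, the log2 fold changes were -0.42 for Nfe2l2 (adjusted p = 0.0984) and -1.62 for Slc7a11 (adjusted p = 0.112).

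**Figure D4:**
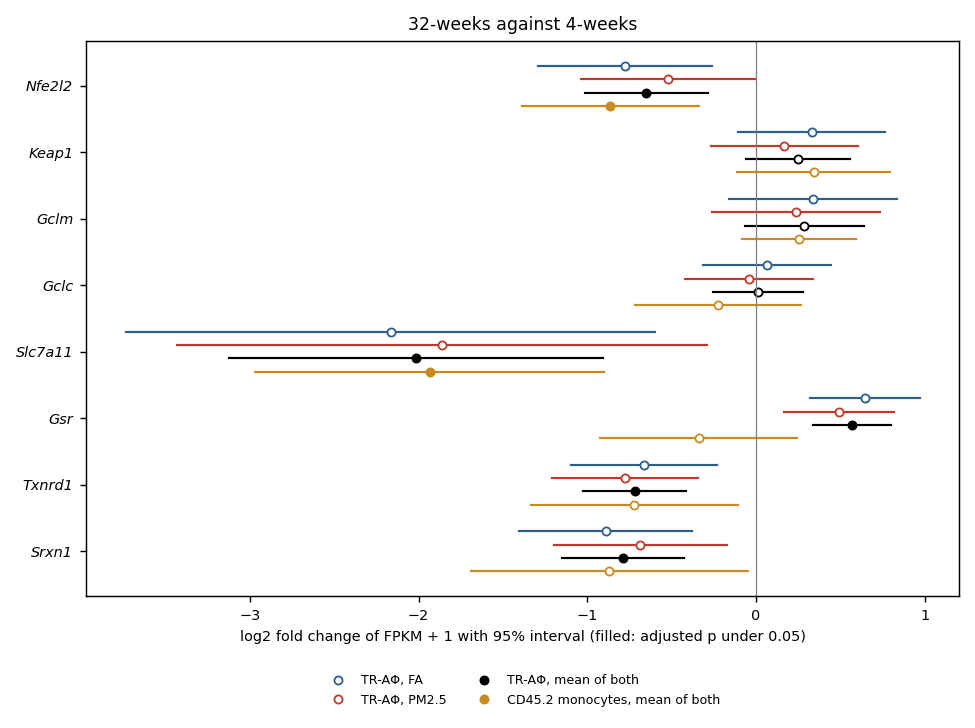
Log2 fold change of FPKM + 1, 32-weeks against 4-weeks, with 95% interval for the 8 tested genes in TR-AΦ with FA, with PM2.5 and with both averaged, and in CD45.2 monocytes with both averaged (filled: adjusted p under 0.05). In the averaged TR-AΦ comparison 5 points are filled, from -2.01 for Slc7a11 to 0.57 for Gsr, and in monocytes 2 are.

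In CD45.2 monocytes 2 of 8 members passed between 32- and 4-weeks, both lower, beside 1914 of 12856 genes (14.9%). Slc7a11 read 43.8 to 82.3 FPKM at 4-weeks with a median of 66.9, and 5.68 to 75.6 at 32-weeks with a median of 13.1. Of the 6 libraries of 32-weeks 5 were at or under 16.1 FPKM, and the exception was an FA library. The log2 fold change was -1.93 (SE 0.48, adjusted p = 0.0148). Nfe2l2 read 225 to 616 FPKM at 4-weeks with a median of 321, and 161 to 270 at 32-weeks with a median of 189, a log2 fold change of -0.86 (SE 0.24, adjusted p = 0.0280). Without the 2 libraries rich in interstitial macrophage markers, 0 of 8 members passed and 978 of all genes did. The values were then -1.86 for Slc7a11 (adjusted p = 0.0663) and -0.80 for Nfe2l2 (adjusted p = 0.121). The Nfe2l2 call was lost in 9 of 19 alternatives, 5 of them the loss of a single library, and without both 4-week libraries numbered 2 the value was -0.50 (adjusted p = 0.0897).

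Txnrd1 and Srxn1 differed by -0.72 and -0.87 in these monocytes with adjusted p = 0.114 and 0.155, and Gsr by -0.34 (95% interval -0.92 to 0.24). For 0 of 8 members were the groups apart, beside 7.72% of all genes. The sizes in monocytes and TR-AΦ were then compared directly. The interaction of time and cell type passed for 0 of 8 members, beside 1049 of 13307 genes (7.88%, with 2702 at an unadjusted p under 0.05). For Slc7a11 the difference of the 2 time effects was -0.08 (-1.59 to 1.43) and for Txnrd1 it was 0.00 (-0.67 to 0.68). Gsr stood nearest to the threshold, at 0.91 (0.30 to 1.52, adjusted p = 0.0601), since it was higher at 32-weeks in TR-AΦ and was not in monocytes. This value passed without the 32-week CD45.2 monocyte library numbered 2 of FA (1.12, adjusted p = 0.00670) or of PM2.5 (1.022, adjusted p = 0.0309).

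Other RNA moved with time as well. The summed level of the 8 handling genes was 2407 to 4351 FPKM in TR-AΦ at 4-weeks and 1267 to 2821 at 32-weeks, and in CD45.2 monocytes it was 2456 to 4963 and 2721 to 4920. The summed level of 7 interstitial macrophage markers rose from 106 to 589 FPKM in CD45.2 monocytes at 4-weeks to 1006 to 3827 at 32-weeks, and was 44.8 to 644 and 24.9 to 79.1 in TR-AΦ. The monocyte marker sum was 206 to 612 FPKM in TR-AΦ at 4-weeks with a median of 318, and 106 to 374 at 32-weeks with a median of 194. That of 6 neutrophil markers was 995 and 315 FPKM in the PM2.5 and FA monocyte libraries numbered 2 of 4-weeks, against at most 42.8 in their other libraries. In TR-AΦ of 4-weeks it was 46.9 and 18.2 in the libraries numbered 2, against at most 3.29 in the others. The part of these in the time differences was not tested.

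The other genes of the pathway were read from 6 lists of 63 genes outside the members. In TR-AΦ, 2 of 52 tested were higher and 3 lower at 32-weeks in the averaged comparison, in which 5.91% of all genes passed. Hmox1, the haem oxygenase induced through NRF2, read 203 to 289 FPKM at 4-weeks and 55.5 to 122 at 32-weeks, with no overlap and a log2 fold change of -1.67 (adjusted p = 4.42e-05). It also passed within FA at -1.60 (adjusted p = 0.00435) and within PM2.5 at -1.73 (adjusted p = 0.00158). Sqstm1, the p62 adaptor that sequesters KEAP1, fell by 0.82 on the log2 scale, from 330 to 433 FPKM at 4-weeks to 182 to 245 at 32-weeks, and passed within each exposure too. Maff, a small MAF partner, fell by 0.94 (adjusted p = 0.00982). Pgd, which supplies NADPH, rose by 0.43 and Akr1a1, an aldehyde reductase, rose by 0.31. Thus Hmox1, Sqstm1 and Maff fell beside Txnrd1, Srxn1, Slc7a11 and Nfe2l2, while Pgd and Akr1a1 rose beside Gsr. Over all 52 pathway genes tested the median log2 fold change was 0.14, above the 0.03 of all genes. None of the 10 thioredoxin and peroxiredoxin genes and none of the 7 glutathione genes tested passed; the medians of those lists were 0.18 and 0.09, beside 0.03 over all genes.

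In CD45.2 monocytes 5 of 53 pathway genes tested were higher and 8 lower at 32-weeks, where 14.9% of all genes passed. Hmox1 fell by 0.998 (adjusted p = 0.0389), from 75.0 to 163 FPKM at 4-weeks to 29.3 to 115 at 32-weeks. Mafg, another small MAF, fell by 0.84, and Bach2, a repressor that competes at the same elements, rose by 0.85. Prdx6 and Gpx1, which reduce peroxides, fell by 0.95 and 0.80. Ephx1, an epoxide hydrolase, rose by 3.03, and Gpx3, the secreted glutathione peroxidase, by 1.41. Without the 2 libraries rich in interstitial macrophage markers 4 pathway genes were higher and 4 lower, all 8 among the 13. Hmox1 (-1.17, adjusted p = 0.0630) and Gpx1 (-0.74, adjusted p = 0.0913) then did not pass. With PM2.5, 0 of 52 pathway genes passed in each AΦ comparison and 0 of 53 in each monocyte comparison.

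Between the cell types 4 or 5 of the 8 members differed, a share near that of all genes, so these counts do not set the members apart. In AΦ against monocytes of CD45.2 origin at 4-weeks, 5 of 8 members passed, beside 6408 of 13307 genes (48.2%). At 32-weeks 4 of 8 passed in CD45.2 cells, beside 6291 genes (47.3%), and 4 of 8 in CD45.1 cells, beside 6767 genes (50.9%). Nfe2l2, Slc7a11 and Gsr were lower and Gclm was higher in AΦ in all 3 comparisons. Each comparison averages FA and PM2.5, 6 libraries against 6. The libraries of the cell types did not overlap for 4, 2 and 3 members, beside 29.8%, 26.9% and 30.8% of all genes. The CD45.2 monocytes at 32-weeks held 1006 to 3827 FPKM of interstitial macrophage markers, against 24.9 to 79.1 in TR-AΦ. Without the 2 libraries richest in them 4 of 8 members still passed, beside 6087 of 13254 genes.

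Nfe2l2 read 107 to 212 FPKM in AΦ and 225 to 616 in monocytes at 4-weeks, a log2 fold change of -1.26 (SE 0.21, adjusted p = 1.59e-05). At 32-weeks it read 79.0 to 109 FPKM in TR-AΦ and 161 to 270 in CD45.2 monocytes, a log2 fold change of -1.05 (adjusted p = 0.000181). In CD45.1 cells it read 77.5 to 112 and 162 to 287 FPKM, a log2 fold change of -1.12 (adjusted p = 7.72e-05). The libraries of the 2 cell types did not overlap in any of the 3 comparisons. Gsr was also lower in AΦ, by -1.52 at 4-weeks (adjusted p = 8.17e-07), by -0.61 in CD45.2 cells at 32-weeks (adjusted p = 0.0177) and by -1.24 in CD45.1 cells (adjusted p = 1.75e-05). Its call in CD45.2 cells at 32-weeks was lost without the monocyte library numbered 2 of FA (-0.41, adjusted p = 0.0856) or of PM2.5 (-0.50, adjusted p = 0.0622). The same call was lost in the fit with only the libraries compared (-0.61, adjusted p = 0.0971). After quantile normalization the 4-week differences were smaller, at -0.91 for Nfe2l2 and -1.18 for Gsr, and both still passed.

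Slc7a11 in AΦ read 14.6 to 37.0 FPKM at 4-weeks, below the 43.8 to 82.3 of monocytes, with a log2 fold change of -1.58 (SE 0.52, adjusted p = 0.0130). At 32-weeks it read 1.52 to 9.71 FPKM in TR-AΦ and 5.68 to 75.6 in CD45.2 monocytes, a log2 fold change of -1.66 (adjusted p = 0.00959). In CD45.1 cells it read 1.82 to 17.9 in BM-AΦ and 10.3 to 91.5 in monocytes, a log2 fold change of -1.90 (adjusted p = 0.00323). The ranges met at 32-weeks and did not at 4-weeks.

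The subunits of glutamate-cysteine ligase, the rate-limiting enzyme of glutathione synthesis, differed. Gclm read 5.68 to 9.38 FPKM in AΦ and 2.53 to 3.87 in monocytes at 4-weeks, a log2 fold change of 0.94 (SE 0.16, adjusted p = 1.76e-05). It was 0.97 in CD45.2 cells at 32-weeks (adjusted p = 1.19e-05) and 1.33 in CD45.1 cells (adjusted p = 8.44e-08), with no overlap of the libraries in any of the 3. Gclc, the catalytic subunit, had intervals that held 0 in all 3: -0.65 to 0.13, -0.41 to 0.36 and -0.28 to 0.50. The mean of Gclc was 5.91 FPKM in AΦ and 7.55 in monocytes at 4-weeks.

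Keap1 was higher in AΦ at 4-weeks, at 6.87 to 10.5 FPKM against 3.46 to 10.03, with a log2 fold change of 0.51 (adjusted p = 0.0240). At 32-weeks the differences were 0.42 in CD45.2 cells (adjusted p = 0.0663) and 0.39 in CD45.1 cells (adjusted p = 0.0832). The 4-week call was lost with only the libraries compared (adjusted p = 0.0789), without both libraries numbered 2 of each cell type (0.42, adjusted p = 0.0802), without the PM2.5 monocyte library numbered 2 (0.31, adjusted p = 0.120), without the FA monocyte library numbered 1 (0.46, adjusted p = 0.0573), without the FA AΦ library numbered 0 (0.48, adjusted p = 0.0508) and without the PM2.5 AΦ library numbered 1 (0.47, adjusted p = 0.0537). At 32-weeks the difference passed in CD45.2 cells without the PM2.5 AΦ library numbered 2 (0.50, adjusted p = 0.0382). In CD45.1 cells it passed without the PM2.5 AΦ library numbered 2 (0.47, adjusted p = 0.0441) and without the FA monocyte library numbered 0 (0.50, adjusted p = 0.0266). Txnrd1 and Srxn1 passed in none of the 3 comparisons. The intervals of Txnrd1 were -0.41 to 0.54, -0.41 to 0.54 and -0.09 to 0.86, and those of Srxn1 were -0.50 to 0.76, -0.41 to 0.84 and -0.24 to 1.01. At 4-weeks the mean of Txnrd1 was 65.7 FPKM in AΦ and 63.2 in monocytes.

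**Figure D5:**
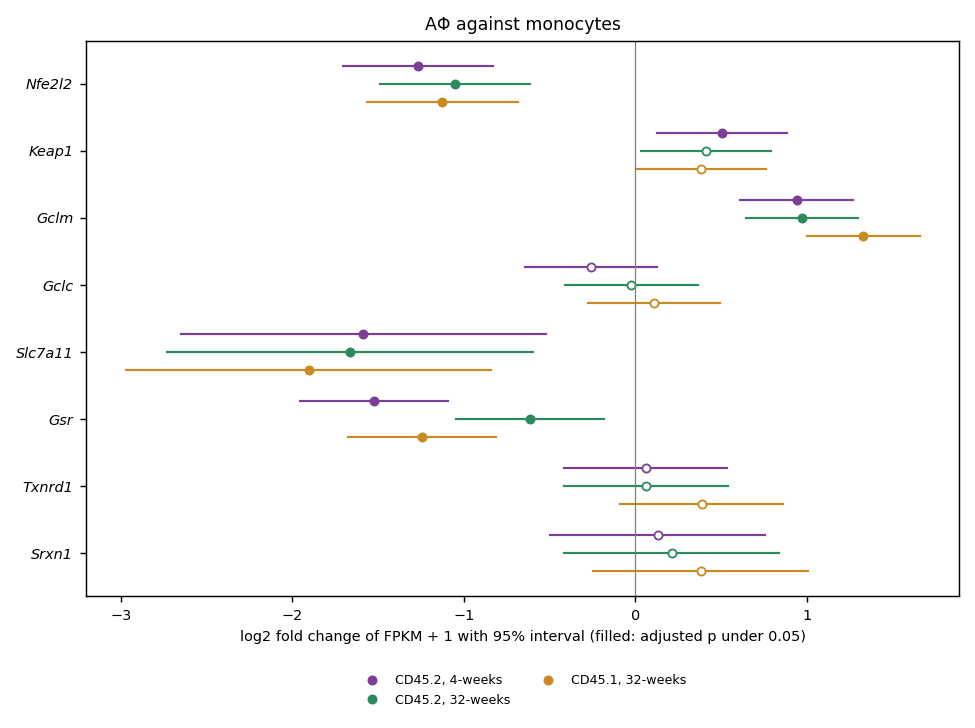
Log2 fold change of FPKM + 1, AΦ against monocytes, with 95% interval for the 8 tested genes in CD45.2 cells at 4-weeks, CD45.2 cells at 32-weeks and CD45.1 cells at 32-weeks (filled: adjusted p under 0.05). Nfe2l2, Slc7a11 and Gsr lie left of 0 and Gclm lies right of it in all 3, and Keap1 is filled at 4-weeks only.

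Beyond the members, 20 of 54 pathway genes were higher and 13 lower in AΦ at 4-weeks, 19 and 9 in CD45.2 cells at 32-weeks, and 29 and 8 in CD45.1 cells. The shares of all genes that passed in either direction were 48.2%, 47.3% and 50.9%. Without the 2 monocyte libraries rich in interstitial macrophage markers the CD45.2 counts at 32-weeks were 19 and 8. Among the genes that control NRF2 or share its elements, Maff (1.17, 1.07 and 1.11 in the 3 comparisons) and Nfe2l1 (0.59, 0.93 and 1.25), the NRF2 relative that drives proteasome genes, were higher in AΦ. Mafg, another small MAF, went the other way. Its mean at 4-weeks was 25.9 FPKM in AΦ and 51.2 in monocytes, and it differed by -0.52 in CD45.2 cells at 32-weeks (adjusted p = 0.00123). The repressors Bach1 (-1.16, -1.24 and -1.31) and Bach2 (-1.04, -2.29 and -1.70) were lower in AΦ in all 3. Thus the activator Nfe2l2 and the repressors of the same elements were both lower in AΦ.

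Among the thioredoxin genes, Txn1, the substrate of thioredoxin reductase, was higher in AΦ by 1.31, 1.88 and 1.88. Its inhibitor Txnip was higher by 1.55, 1.60 and 2.46, and Prdx1 by 0.99, 1.01 and 1.33, while Prdx6 was lower by -2.01, -0.94 and -1.32. Txn1 read 99.9 to 155 FPKM in AΦ at 4-weeks and 33.6 to 58.0 in monocytes. Prdx5 was lower in AΦ at 4-weeks (-0.61, adjusted p = 0.000612). Blvra, the biliverdin reductase, was higher by 1.99, 1.76 and 2.08, and 0 of the 7 rows of the haem and iron list were lower in any of the 3 comparisons. Osgin1 was lower by -2.11, -2.10 and -1.35, and Cbr1, a carbonyl reductase, was higher by 1.18, 1.32 and 1.54.

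No member passed between origins, which cannot be told apart from donor strain and from the host's irradiation and busulfan. Between BM-AΦ and TR-AΦ at 32-weeks 0 of 8 passed, beside 40 of 12665 genes (0.316%, with 944 at an unadjusted p under 0.05), and the members' log2 differences ran from -0.18 to 0.20. The widest of the intervals, that of Slc7a11, ran from -0.91 to 1.31, and the interval of Nfe2l2 ran from -0.36 to 0.37. Between CD45.2 and CD45.1 monocytes 0 of 8 passed, beside 86 of 12856 genes (0.669%, with 1233 at an unadjusted p under 0.05), with differences from -0.44 to 0.28. For no member was an unadjusted p under 0.05 in either comparison. Of the other pathway genes 0 of 52 passed in AΦ, and in monocytes only Gpx3 passed of 53, higher in CD45.2 cells by 1.12 (adjusted p = 0.0274). Without the 2 libraries rich in interstitial macrophage markers Gpx3 did not pass (0.93, adjusted p = 0.1803), and 0 members did.

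Finally, the genes whose 12 group means followed each member most closely were sought over 13306 other genes, by Pearson's r of the mean log2(FPKM + 1). The groups share cell type and time, so these values describe the pattern and carry no test. Txnrd1 and Srxn1 were each other's nearest gene, with r = 0.99, and Map2k3 came next for both, at 0.97 and 0.96. Nfe2l2 was followed by Arl5b, Pim1 and Eif1, all at 0.99. Slc7a11 was followed by Clec4e (0.99), Gm17024 and Mcl1 (both 0.97), and Keap1 by Egln1, Fkbp2 and Kpna6 (each 0.96). Gclm had Asb4 (0.99), Ext2 and Gpd1 (both 0.98). Gclc, the flattest member, had the lowest values, with Gm7993, Tbk1 and 1810055G02Rik at 0.90, 0.89 and 0.88. Apart from Txnrd1 and Srxn1, no member was among the nearest 3 genes of another.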

How the data were processed

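The authors sorted cells by flow cytometry, extracted RNA with an RNeasy Micro kit and made SMART-Seq stranded libraries. By the study's methods and the submitters' processing notes, reads were aligned with STAR to mm10 and FPKM values came from Cufflinks. The authors deposited 1 table of FPKM per gene, scaled by transcript length and library, with no counts, so depth is unknown. Values on the log2 scale were computed here from the deposited FPKM.

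Groups were taken from the sample titles. Members were matched by symbol. limma 3.58.1 (R 4.3.3) was run on log2(FPKM + 1) with a mean for each group, trended empirical Bayes variances and Benjamini-Hochberg adjustment across the genes whose mean reached 1 FPKM in the groups fitted together (6 of AΦ, 6 of monocytes, or all 12). The call threshold was an adjusted p of 0.05. A fold change on this scale understates the change of low genes. There were 18 planned comparisons and 1 added. The fit was tested on simulated data. Each result was recomputed with 0.1 as the pseudocount, with every gene kept, after quantile normalization, in fits with only the libraries compared, with a replicate block, and with each library left out. Duplicated symbols were kept as rows of their own, so Fth1 counts as 2 rows.

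The members and lists were chosen with earlier results of these data known. Named besides the 9 members were up to 3 genes for each list, direction and comparison by size of change among those called, and the 3 genes most like each member, of which those of Gsr are not reported here. The table's starts were raised by 1 base to count from 1.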

Additional observations from a re-analysis of the deposited data

Results flagged for a closer look

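No member's effect differed between groups by an interaction test. Among the other genes of the pathway, 9 of 54 tested had a different change from 4- to 32-weeks in TR-AΦ than in CD45.2 monocytes (limma, adjusted p under 0.05), beside 1049 of 13307 genes (7.88%). As the log2 change in TR-AΦ minus that in monocytes, the value was 1.06 for Prdx6, 0.90 for Gpx1, 0.84 for G6pdx, 0.74 for Prdx5, 0.70 for Pgd and 0.68 for Gstm1, and it was -2.72 for Ephx1, -1.46 for Gpx3 and -1.25 for Bach2. Ephx1 read 5.33 to 15.4 FPKM in TR-AΦ at 4-weeks and 8.79 to 13.4 at 32-weeks, and 0.20 to 6.64 and 8.59 to 46.6 FPKM in monocytes. Prdx6 read 17.9 to 29.3 and 20.3 to 32.1 FPKM in TR-AΦ, and 79.8 to 103 and 36.2 to 82.5 FPKM in monocytes. The interstitial macrophage marker sums given in the report moved with time in monocytes over the same libraries, and their part was not tested. Without the 2 monocyte libraries richest in those markers 6 of the 9 passed, beside 611 of 13254 genes, and Gpx3 (-1.26, adjusted p = 0.0737), Prdx5 (0.57, adjusted p = 0.0726) and Gpx1 (0.83, adjusted p = 0.0595) did not.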

How the results depend on the processing

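Of 44 printed log2 fold changes of members under 681 pairs of value and alternative, 623 kept direction and side of the threshold, 45 lost the call, 13 gained it and 0 changed sign. The count of members called moved as follows. In CD45.2 monocytes between times it was 2, and 1 with quantile normalization, with only the libraries compared and without the 4-week libraries numbered 2, 0 without the 2 monocyte libraries rich in interstitial macrophage markers, and 1 to 2 when single libraries were left out. In TR-AΦ with both exposures averaged it was 5, and 3 with no filter on low values and without the 4-week libraries numbered 2, and 3 to 5 when single libraries were left out. Within PM2.5 it was 0, and 1 with quantile normalization. For the interaction of time and cell type it was 0, and 0 to 1 when single libraries were left out. With a replicate block it was 2 within FA, 2 within PM2.5 and 1 for that interaction, and Keap1 passed between the cell types at 32-weeks with the block in CD45.2 (adjusted p = 0.0208) and CD45.1 cells (adjusted p = 0.0288). Same-numbered libraries of the same exposure and time had deviations correlated at -0.04 to 0.16. These were over 0.1 in all 3 pairs for 0 of 14 group pairs, and for 0 of 52 other group pairs. In 5 of 14 every library correlated best with its own number, beside 9 of the 52 others. The values cannot tell whether the numbers mark mice, and the numbers were not taken to mark them. The cause of the moves in the count of members called was not tested. Between the cell types the count ran from 4 to 6 at 4-weeks (5 reported), from 3 to 5 in CD45.2 cells at 32-weeks (4) and from 4 to 5 in CD45.1 cells (4). For exposure and origin the count stayed 0 under every alternative. Over all genes the count moved by over 1.5 times in 16 of 19 comparisons. It ran from 14 to 197 for time in TR-AΦ within FA (99 reported), 18 to 381 within PM2.5 (133), 395 to 1308 averaged (748) and 978 to 2644 in monocytes (1914), from 611 to 1808 for time and cell type (1049), from 15 to 69 between AΦ of the 2 origins (40) and from 32 to 152 between monocytes (86), and was at most 11 for exposure.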
